A study of Mus musculus with 4 samples.

Results

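The genes described are those of the mitochondrial ribosomal proteins. They were taken as the protein-coding genes whose symbol begins with Mrpl or Mrps followed by a digit, which gave 77 of the 22380 protein-coding genes of the GENCODE M1 annotation of the mouse genome (mm9): 47 named Mrpl, for the large subunit, and 30 named Mrps, for the small subunit. They lie on 17 chromosomes. The question asked of the data was at which of these genes Bio-Myc and Max were found, and how often compared with the other 22303 protein-coding genes. One of the 77, Mrps36-ps1, carries a pseudogene suffix but is annotated as protein-coding, and Mrp63, a large-subunit protein with another form of name, was not matched by the rule.

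Mitochondrial ribosomes translate the few proteins that are encoded in mitochondrial DNA, which are core subunits of the respiratory chain. All of their own proteins are encoded in the nucleus, made in the cytosol and imported. Myc binds DNA as a dimer with Max, prefers the E-Box CACGTG, and is known as a regulator of ribosome production and of mitochondrial genes. In ESCs it is part of the network that sustains growth and self-renewal.

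The study mapped Myc and Max by ChIP-Seq in E14 mouse ESCs. For Bio-Myc, streptavidin beads were used on chromatin of a single stable clone that expresses biotin-tagged Myc from the EF1α promoter together with the biotin ligase BirA, so the protein mapped is an added copy and not the endogenous one. The control of this ChIP was a mock streptavidin ChIP, whose cells are parental wild type by the labels and BirA-ES cells without tagged Myc by the methods. For Max, an antibody against the endogenous protein was used on chromatin of parental wild-type cells, with an IgG ChIP as the control. No cells received a treatment. Each ChIP is 1 library, so no value has an error between cultures and no test between the ChIPs or between genes was made. The 95% intervals given with shares are Wilson intervals over genes and cover counting error only.

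The Bio-Myc list holds 3962 peaks and the Max list 11570. The score of a peak is −10 times the log10 of its MACS p-value, the lowest score the authors' limit of 1e-08 allows is 80, and Max scores reach a ceiling of 3100 in 15 peaks. The number of reads is not part of the lists, so the depth is unknown, and a gene without a peak is one where none was called, not one shown to be unbound. The Max list has 11.7% of its peaks on chromosome 8 and the Bio-Myc list 5.40%. Only 2 of the 77 genes lie there, Mrpl34 with a Max peak and Mrps31 with no peak. The lists hold no expression values, so the identity of the cells could not be checked against marker genes. A gene was called bound if any of its annotated TSSs had a peak within 1 kb.

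The sequences under the peaks are shown first, because the canonical E-Box was less frequent here than at other bound genes. Among the 33 mitochondrial ribosomal protein genes with a Bio-Myc peak, the canonical E-Box lay under the strongest peak of 6 only, and the 9 E-Boxes of these genes are printed with 12 bases to either side. All sequences are of mm9, on the strand of the gene, 5′ to 3′, with the E-Box CACGTG in capitals.
Mrpl2, chr17:46783027-46783056, + strand, upstream: actgccgcccgtCACGTGacccgagcaacc
Mrpl2, chr17:46783412-46783441, + strand, intron: gctaggcgagatCACGTGaccttcgttctc
Mrpl18, chr17:13110043-13110072, − strand, upstream: accacagcaaacCACGTGcttactcgtatt
Mrpl23, chr7:149719355-149719384, + strand, intron: ttcaccggtctcCACGTGgccagcagtgct
Mrpl23, chr7:149719413-149719442, + strand, intron: gtgttcagtaaaCACGTGacccactggttg
Mrpl36, chr13:73468402-73468431, + strand, upstream: cacacgtcatccCACGTGaccttacgccat
Mrpl54, chr10:80729643-80729672, − strand, UTR exon: cacggaagtctgCACGTGcgagcggccggc
Mrps12, chr7:29524891-29524920, − strand, coding sequence: tatgactgcggcCACGTGcaaaagaagaaa
Mrps12, chr7:29524975-29525004, − strand, coding sequence: ctgcaggagcatCACGTGgtcctcgtggag

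Distances are from the annotated TSS nearest to the E-Box, which need not be the outermost one, and negative distances are upstream. The E-Box of Mrpl54 lies 9 bp downstream of that TSS and that of Mrpl36 at −38 bp, whereas those of Mrpl23 lie 450 and 508 bp downstream and that of Mrpl18 at −844 bp. Tcp1 starts on the opposite strand 16 bp from a TSS of Mrpl18. The E-Box of Mrpl18 lies beyond that start, on the side of Tcp1, and outside the Max peak of Mrpl18. Over the 9 E-Boxes the median distance to the nearest TSS was 178 bp, and 2 lay within 100 bp of the centre of the Bio-Myc peak. The Max peaks of 13 of the genes held an E-Box. Those of Mrps18c, Mrpl27 and Mrps33 are shown because they lie closest to a TSS among the genes with a Max peak and no Bio-Myc peak.
Mrps18c, chr5:101227603-101227632, + strand, upstream: gcagccccgggtCACGTGacttccggcccg
Mrpl27, chr11:94515277-94515306, + strand, intron: actgtctccggtCACGTGacacgttgtggg
Mrps33, chr6:39760723-39760752, − strand, intron: tcctggagcttcCACGTGtaccccacaaac

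Of the 10 highest Bio-Myc scores among these genes, 8 belonged to genes without a canonical E-Box under the peak. Its absence was not particular to high scores. The E-Box was under the peak of 6 of all 33 bound genes (18.2%), against 49.5% of the other bound genes. For 4 of these 8 genes the bases just upstream of the outermost TSS and outside annotated exons are printed. Capitals mark the variant E-Box CACGCG or its reverse complement, and the ETS motif CCGGAAG, which is the core bound by GABP, a known regulator of mitochondrial genes.
Mrpl12, chr11:120345727-120345926, + strand: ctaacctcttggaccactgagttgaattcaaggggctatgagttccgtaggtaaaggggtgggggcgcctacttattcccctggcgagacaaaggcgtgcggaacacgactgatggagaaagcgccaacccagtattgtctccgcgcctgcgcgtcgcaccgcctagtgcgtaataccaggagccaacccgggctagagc
Mrpl43, chr19:45080933-45081047, − strand: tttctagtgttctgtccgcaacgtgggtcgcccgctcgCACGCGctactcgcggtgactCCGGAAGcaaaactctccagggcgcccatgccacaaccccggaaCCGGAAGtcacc
Mrpl17, chr7:112959614-112959813, − strand: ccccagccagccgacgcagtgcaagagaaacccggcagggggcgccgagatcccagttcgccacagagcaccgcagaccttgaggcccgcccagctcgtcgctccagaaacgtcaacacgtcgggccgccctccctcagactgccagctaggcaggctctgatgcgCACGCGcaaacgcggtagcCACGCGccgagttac
Mrps28, chr3:8923919-8924118, − strand: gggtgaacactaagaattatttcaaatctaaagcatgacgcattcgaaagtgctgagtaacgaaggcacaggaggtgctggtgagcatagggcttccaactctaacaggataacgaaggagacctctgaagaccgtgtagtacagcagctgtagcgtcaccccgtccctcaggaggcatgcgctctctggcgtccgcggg
The stretch of Mrpl43 is the whole interval between its TSS and that of Peo1, which encodes the mitochondrial DNA helicase Twinkle, and it holds the variant E-Box from −77 bp and ETS motifs from −56 and −12 bp of the Mrpl43 TSS. The stretch of Mrpl17 holds the variant E-Box from −34 and −15 bp. Those of Mrpl12 and Mrps28 hold neither motif. The corresponding stretches of Mrpl13 and Mrpl50, which are not printed, hold neither motif as well. The Bio-Myc peaks of Mrpl12 and Mrpl13 hold a variant E-Box elsewhere, and that of Mrpl13 also holds an ETS motif. The peaks of Mrps28 and Mrpl50 hold neither motif. No stretch is given for Mrps18b and Mrpl48. Their Bio-Myc peaks each hold a variant E-Box, and that of Mrps18b also holds an ETS motif.

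A Bio-Myc peak was found at 33 of the 77 genes, or 42.9% (interval 32.4 to 54.0%), and at 14.5% of the other protein-coding genes. A Max peak was found at 56 genes, or 72.7% (61.9 to 81.4%), against 34.7% of the others. Both peaks were at 29 genes, or 37.7% (27.7 to 48.8%), against 12.6%. The share was thus 2.95 times that of the other genes for Bio-Myc and 2.1 times for Max. A Max peak without a Bio-Myc peak was at 27 genes (35.1%, 22.1% of the others), a Bio-Myc peak without a Max peak at 4 genes (5.19%, 1.97% of the others), and 17 genes had neither (22.1%, 63.4% of the others).

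Both subunits were represented. Bio-Myc was at 22 of 47 Mrpl genes (46.8%) and 11 of 30 Mrps genes (36.7%), and Max at 35 (74.5%) and 21 (70.0%), with intervals that overlap in both cases. Genes of proteins with a bacterial homologue, the ancestral core of the ribosome, had a Bio-Myc peak in 19 of 47 (40.4%). The genes with no such homologue listed, among them Mrps36 and Mrps36-ps1, had one in 14 of 30 (46.7%). For Max these were 34 (72.3%) and 22 (73.3%). The intervals again overlap, and each includes the share of the other group. No difference by subunit name or by listed homologue was detectable with this number of genes.

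**Figure D1:**
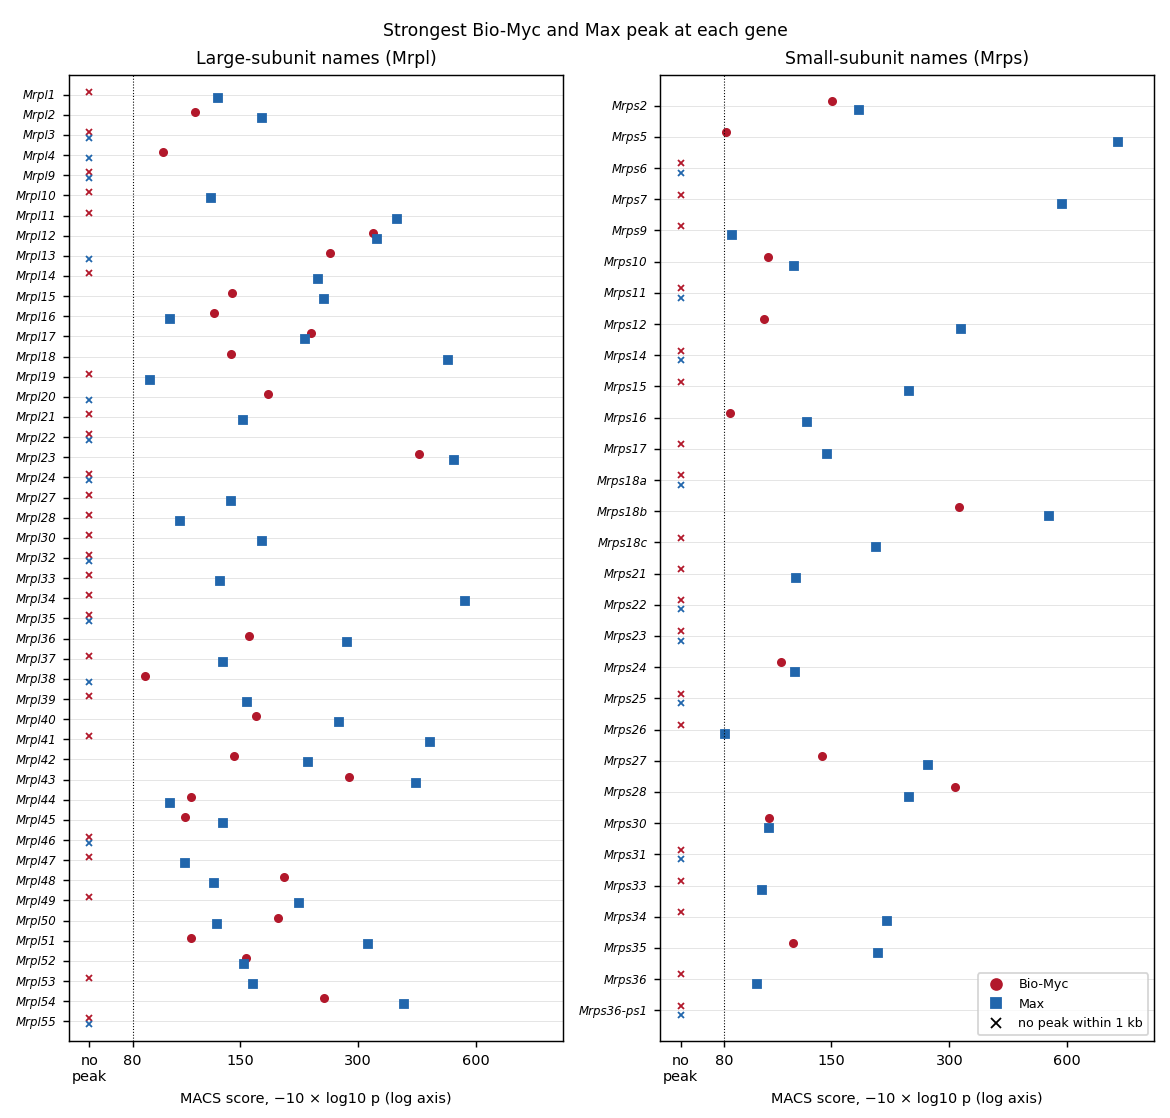
Strongest Bio-Myc peak (circle) and Max peak (square) within 1 kb of a TSS for each of the 77 genes, as MACS score on a log axis, with Mrpl genes on the left and Mrps genes on the right. Crosses mark genes with no peak and the dotted line the lowest score of 80. The Bio-Myc scores run from 81.1 at Mrps5 to 428 at Mrpl23, and the Max scores from 80.6 at Mrps26 to 806 at Mrps5.

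Among the large-subunit genes, Mrpl23, whose protein sits at the rim of the tunnel where the new chain leaves the ribosome, had the highest Bio-Myc score, 428, with a Max score of 528. Mrpl12, whose protein forms the flexible stalk that recruits translation factors and also binds the mitochondrial RNA polymerase, had 328 for Bio-Myc and 336 for Max. These Bio-Myc scores are higher than those of 93.0% and 87.5% of the other bound genes. Mrpl43, next to Peo1, had 285 and 422, and Mrpl54 had 246 and 394. The neighbours of Mrpl12 in the stalk differed: Mrpl10 (127) and Mrpl11 (378) had a Max peak and no Bio-Myc peak.

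Genes of proteins around the exit tunnel were bound unevenly. Besides Mrpl23, Mrpl17 had a Bio-Myc score of 228 and a Max score of 220. Mrpl45, which anchors the ribosome to the inner membrane, had 109 and 136, and Mrpl44, a protein related to RNase III, had 112 and 99.8. Mrpl22 and Mrpl24 had no peak of either list within 1 kb. At the peptidyl transferase centre, where peptide bonds are made, Mrpl2 had 115 and 171, Mrpl16 had 129 and 99.8, Mrpl27 had a Max peak of 143 alone, and Mrpl3 had none.

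Genes of the central protuberance, the crown of the large subunit, also differed from each other. Mrpl48 had a Bio-Myc score of 195 and a Max score of 129, Mrpl40 165 and 268, and Mrpl52 155 and 154. Mrpl38 had Bio-Myc at 86.2 and no Max peak, and Mrpl46 had neither. The other large-subunit genes with both peaks were Mrpl15 (143 for Bio-Myc), Mrpl18 (143), Mrpl36 (158), Mrpl42 (145), Mrpl50 (188) and Mrpl51 (113), with Max scores from 131 (Mrpl50) to 509 (Mrpl18).

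Among the genes named Mrps, not all of which encode proteins of the small subunit, Mrps18b and Mrps28 stood highest for Bio-Myc, at 318 and 310. Their Max scores were 538 and 237. Mrps18b is 1 of 3 paralogues of a single bacterial protein, and these differed: Mrps18c had a Max peak of 195 and no Bio-Myc peak, and Mrps18a had neither. Mrps12, whose protein lies in the decoding centre, had 101 for Bio-Myc and 322 for Max. Mrps5, at the entrance of the mRNA channel, had the highest Max score of all 77 genes, 806, and the lowest Bio-Myc score, 81.1. The remaining Bio-Myc-bound genes were Mrps2 (150), Mrps10 (103), Mrps16 (83.0), Mrps24 (112), Mrps27 (142), Mrps30 (104) and Mrps35 (120), all with a Max peak, and their Max scores ran from 104 (Mrps30) to 265 (Mrps27). Mrps30 is found in the large subunit despite its name.

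The 10 highest Bio-Myc peaks, in falling order of score, were Mrpl23 at chr7:149718553-149719816, Mrpl12 at chr11:120345681-120346397, Mrps18b at chr17:36052676-36054019, Mrps28 at chr3:8923361-8924135 and Mrpl43 at chr19:45080160-45081224, then Mrpl13 at chr15:55388645-55389566, Mrpl54 at chr10:80728986-80730060, Mrpl17 at chr7:112958919-112959752, Mrpl48 at chr7:107755394-107756471 and Mrpl50 at chr4:49533112-49534416. They lie on 8 different chromosomes, and each covers an annotated TSS of its gene.

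The 4 genes with Bio-Myc and no Max peak were Mrpl4 (95.4), Mrpl13 (255), Mrpl20 (177) and Mrpl38 (86.2). All are large-subunit genes. Their Bio-Myc peaks were Mrpl4 at chr9:20806136-20806741, Mrpl13 at chr15:55388645-55389566, Mrpl20 at chr4:155177334-155178192 and Mrpl38 at chr11:115999687-116000439. The nearest Max peak lay at −11011 bp from the TSS of Mrpl4, and 8200, 3338 and 402277 bp downstream of a TSS of Mrpl20, Mrpl38 and Mrpl13. Mrpl13 and Mrpl20 had scores above the Bio-Myc median of the bound genes, so the missing Max peak was not confined to weak Bio-Myc peaks.

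The 27 genes with Max and no Bio-Myc peak had Max scores from 80.6 (Mrps26) to 581 (Mrps7). Mrps7, whose protein organises the head of the small subunit, was followed by Mrpl34 (564, under a peak of 2428 bp on chromosome 8), Mrpl41 (457), Mrpl11 (378) and Mrpl14 (237). Next came Mrps15 (237), Mrpl49 (212), Mrps34 (208), Mrps18c (195) and Mrpl30 (171), and the other 17 scored lower: Mrpl1, Mrpl10, Mrpl19, Mrpl21, Mrpl27, Mrpl28, Mrpl33, Mrpl37, Mrpl39, Mrpl47, Mrpl53, Mrps9, Mrps17, Mrps21, Mrps26, Mrps33 and Mrps36. The Max peaks of the 10 highest were Mrps7 at chr11:115464776-115465803, Mrpl34 at chr8:73987240-73989667, Mrpl41 at chr2:24830284-24831855, Mrpl11 at chr19:4961632-4962560 and Mrpl14 at chr17:45822394-45823811, followed by Mrps15 at chr4:125723910-125725147, Mrpl49 at chr19:6057227-6058264, Mrps34 at chr17:25031522-25032474, Mrps18c at chr5:101227049-101228056 and Mrpl30 at chr1:37946892-37947673. All cover an annotated TSS. The lowest were Mrps26 (80.6), Mrps9 (83.8), Mrpl19 (88.8) and Mrps36 (97.0). The protein of Mrps36 is now known as a subunit of the oxoglutarate dehydrogenase complex and not of the ribosome.

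The 17 genes with neither peak were Mrpl3, Mrpl9, Mrpl22, Mrpl24, Mrpl32, Mrpl35, Mrpl46, Mrpl55, Mrps6, Mrps11, Mrps14, Mrps18a, Mrps22, Mrps23, Mrps25, Mrps31 and Mrps36-ps1. Mrpl46 and Mrps11 start from opposite strands 53 bp apart, so they share 1 promoter region. The nearest peaks to any of the 17 were those of Mrpl22, at −2779 bp (Bio-Myc) and −2932 bp (Max) from a TSS, followed by a Max peak at −7181 bp from Mrpl35 and peaks at 8872 bp (Bio-Myc) and 8680 bp (Max) from Mrpl24. The Bio-Myc peak nearest to Mrpl3 was at −789697 bp. The set holds core proteins (Mrpl3, Mrpl22) as well as proteins without a bacterial homologue (Mrps22, Mrps23).

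The scores at bound genes were close to those elsewhere. The median Bio-Myc score was 143 for the 33 genes (quartiles 112 and 195) and 143 for the 3242 other bound genes (103 and 225). The median Max score was 171 for the 56 genes and 197 for the others. The higher share of bound genes was therefore not accompanied by higher median scores. No score among the mitochondrial ribosomal protein genes came near the highest of the other genes, 1621 for Bio-Myc and 3100 for Max. Those maxima are over 3242 and 7732 bound genes, and a larger set can hold a higher maximum by its size alone.

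Max was at 29 of the 33 Bio-Myc-bound genes, 87.9%, close to 86.5% of the other Bio-Myc-bound genes. Read the other way, Bio-Myc was at 29 of the 56 Max-bound genes, 51.8% (39.0 to 64.3%), against 36.3% of the other Max-bound genes. The share rose with the Max score in both sets. In the lowest tertile of Max scores (up to 145), Bio-Myc was at 9 of 22 of the genes, 40.9% (23.3 to 61.3%), against 17% of the others. In the middle tertile it was at 10 of 20 (50%, others 33.8%), and in the highest, above 269, at 10 of 14 (71.4%, others 57.9%). The intervals of the middle and highest tertiles include the value of the other genes, and that of the lowest does not.

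**Figure D2:**
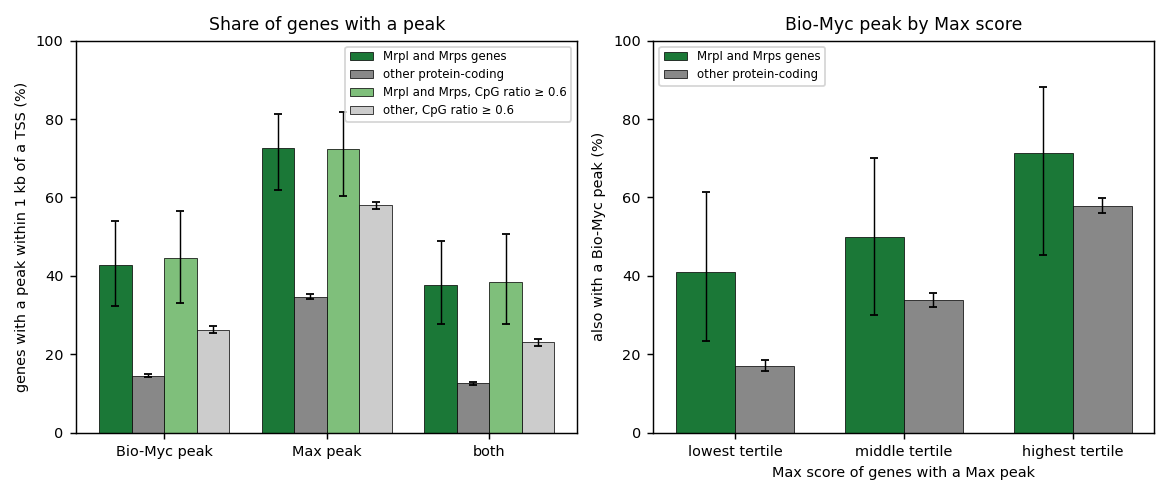
Left, percent of genes with a Bio-Myc peak, a Max peak or both within 1 kb of a TSS, for the 77 genes, the other protein-coding genes, and both sets limited to promoters with a CpG ratio of at least 0.6. Right, percent of Max-bound genes that also had a Bio-Myc peak, by tertile of Max score. Bars start at 0 and error bars are 95% Wilson intervals. The Bio-Myc share is 42.9% against 14.5%, and 44.6% against 26.3% in CpG-rich promoters.

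The promoters of these genes differ from the average promoter in properties that go with both ChIPs among the other protein-coding genes. Whether these properties account for the higher shares was not tested. The ratio of observed to expected CpG in the 300 bases around the outermost TSS had a median of 0.82, against 0.53 for the other genes, and was at least 0.6 in 65 genes (84.4%, others 45.0%). Among genes above this limit, Bio-Myc was at 29 of 65, 44.6% (33.2 to 56.7%), against 26.3%, and Max at 47, 72.3% (60.4 to 81.7%), against 58.0%. The ratio to the other genes was then 1.7 for Bio-Myc and 1.25 for Max. Below the limit, 4 of 12 genes had Bio-Myc (33.3%, others 4.92%) and 9 had Max (75%, others 15.6%). Mrpl23 is in the latter group by the ratio of 0.11 at its outermost TSS. Mrps24 is also in it, by the ratio of 0.43 at its outermost TSS. Its peaks cover an inner TSS and do not lie within 1 kb of the outermost one. The ratio at inner TSSs was not computed.

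A TSS on the opposite strand lay within 1 kb in 28 of the 77 genes (36.4%), against 11.9% of the others. Bio-Myc was at 12 of these 28 genes, 42.9%, and at 21 of the other 49, also 42.9%. In the other protein-coding genes the shares were 34.0% with an opposite TSS and 11.9% without one. Max was at 24 of the 28 (85.7%, others 64.9%) and at 32 of the 49 (65.3%, others 30.6%). Paired genes with Bio-Myc include Mrpl43 with Peo1, Mrps12 with Sars2, the mitochondrial seryl-tRNA synthetase, Mrpl18 with the chaperonin gene Tcp1, Mrpl40 with the histone chaperone gene Hira, and Mrpl51 with the condensin gene Ncapd2. The peak also covered the opposite TSS in 11 of 12 genes for Bio-Myc (91.7%, others 85.7%) and 22 of 24 for Max (91.7%, others 82.2%). At these genes a peak cannot be given to 1 gene of the pair. The Bio-Myc peaks of the other paired genes, not placed so far, were Mrpl18 at chr17:13108363-13110225, Mrpl40 at chr16:18875851-18877334, Mrpl44 at chr1:79772459-79773135, Mrpl51 at chr6:125141311-125142405, Mrps5 at chr2:127412567-127413651, Mrps12 at chr7:29524589-29525476 and Mrps27 at chr13:100114014-100114981.

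The peaks sat on the start sites. The strongest Bio-Myc peak covered an annotated TSS in 32 of 33 genes (97.0%, others 87.9%) and the strongest Max peak in 55 of 56 (98.2%, others 84.1%). The exceptions were Mrpl4, where the Bio-Myc peak ended at −440 bp, and Mrpl40, where the strongest Max peak ended at −527 bp and a second Max peak covered the TSS. The median distance from peak centre to TSS was 131 bp for Bio-Myc (others 147 bp) and 94 bp for Max (others 137 bp). Median widths were 959 bp (others 1074 bp) and 862 bp (others 885 bp). In all 29 genes with both, a Bio-Myc and a Max peak overlapped, as in 97.9% of the other genes with both, and the centres of the strongest peaks were a median of 95 bp apart (others 110 bp).

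**Figure D3:**
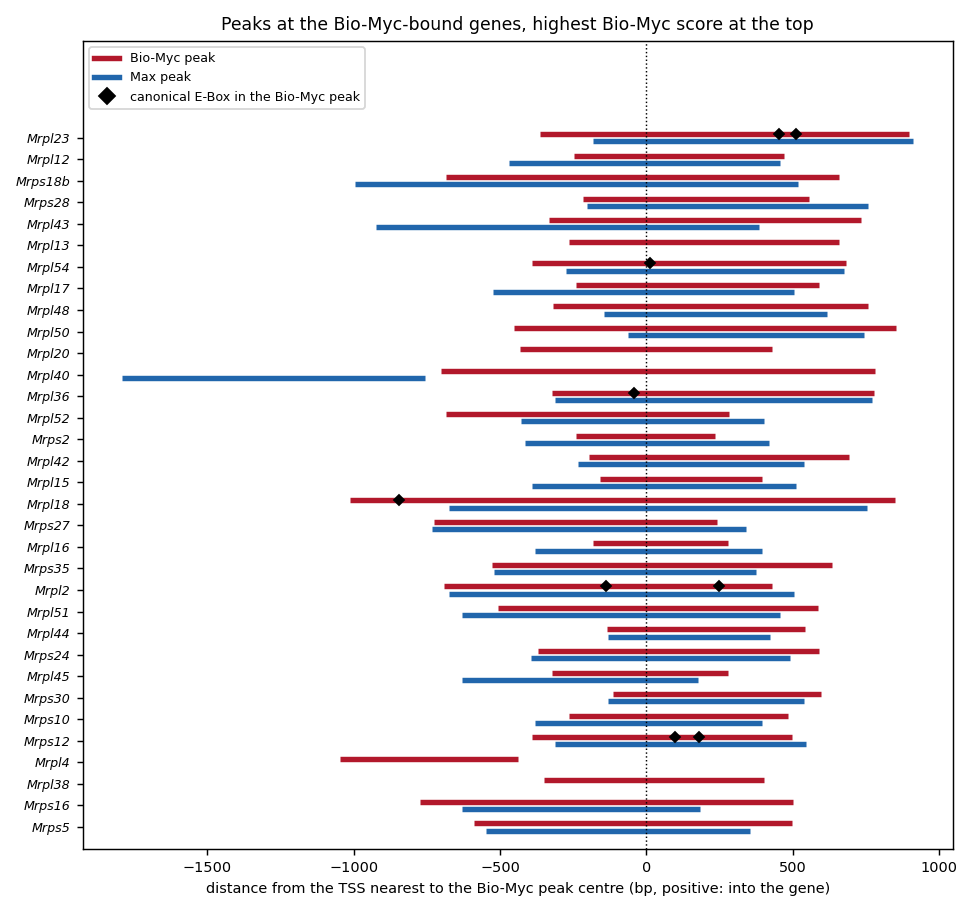
Extent of the strongest Bio-Myc peak (upper line) and the strongest Max peak (lower line) at the 33 Bio-Myc-bound genes, in bp from the TSS nearest to the Bio-Myc peak centre, ordered by Bio-Myc score. Diamonds are canonical E-Boxes under the Bio-Myc peak, present in 6 genes. In 32 genes the Bio-Myc peak covers an annotated TSS, and the strongest Max peak of Mrpl40 is the upstream one of a pair.

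The canonical E-Box was less frequent under these peaks than under those of other genes. CACGTG was found under the strongest Bio-Myc peak of 6 of 33 genes, 18.2% (8.61 to 34.4%), against 49.5% of the other bound genes (47.8 to 51.2%). In regions of the same width 10 kb away the share was 10.6% for these genes and 13.7% for the others. Among other genes with a score no higher than the highest of the 33, the share was 47.7%, and in the central 500 bp of the peaks it was 12.1% against 34.4%. Under Max peaks it was 23.2% (14.1 to 35.8%), or 13 of 56, against 37.5%. Over all bound genes both intervals lie below the value of the other genes. For Max this also held at genes with both peaks, 24.1% (12.2 to 42.1%) against 51.5%, and in the central 500 bp, 14.3% (7.42 to 25.7%) against 28.3%. It did not hold at genes with Max alone, 22.2% (10.6 to 40.8%) against 29.5%, where the interval includes the value of the others. The same was so at CpG ratios of at least 0.6, 25.5% (15.3 to 39.5%) against 37.2%. For Bio-Myc at such CpG ratios the share was 17.2% (7.60 to 34.6%) against 48.5%.

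The variant CACGCG, in contrast, was under the Bio-Myc peak of 20 of 33 genes, 60.6% (43.7 to 75.3%), close to 56.1% of the other bound genes, and in 3.03% and 5.04% of the regions 10 kb away. Either form was present in 24 of 33, 72.7%, against 78.0%. Mrpl45 held 4 copies, and Mrpl17 and Mrpl43 held 3 each.

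**Figure D4:**
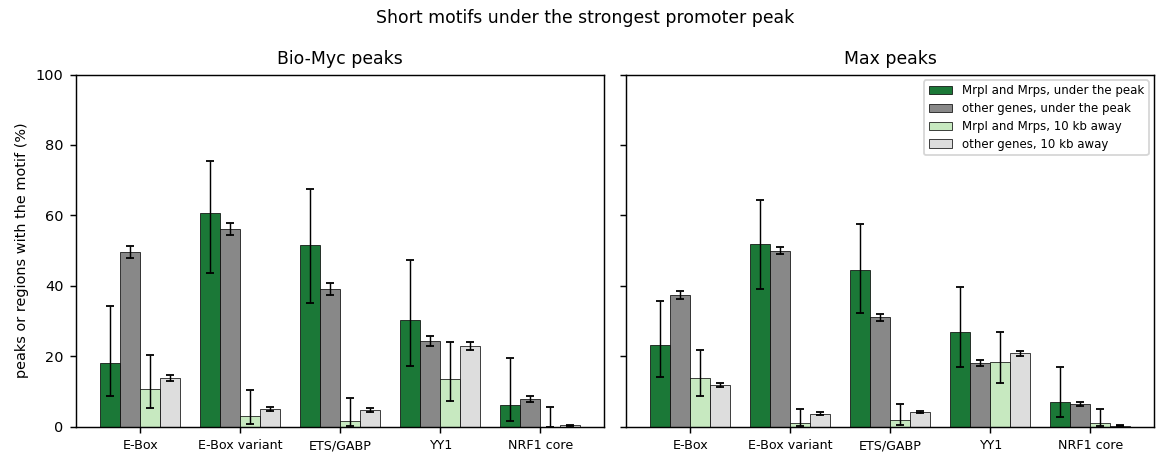
Percent of genes whose strongest promoter peak holds a motif, and of regions of the same width 10 kb away, for Bio-Myc (left) and Max (right), with 95% Wilson intervals. Motifs are named as in the text. The canonical E-Box is under 18.2% of the Bio-Myc peaks of the 33 genes and 49.5% of those of other genes, and the variant under 60.6% and 56.1%.

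The ETS motif CCGGAAG was the commonest other motif. It was under the Bio-Myc peak of 17 of 33 genes, 51.5% (35.2 to 67.5%), against 39.1% of the others. In the promoter itself, 250 bases before to 50 after the outermost TSS, it was found in 27 of the 77 genes, 35.1% (25.4 to 46.2%), against 10.7% of all others and 19.1% of the others with a CpG ratio of at least 0.6. The YY1 motif AAGATGG was in 14 promoters, 18.2% (11.2 to 28.2%), against 6.69% of the others and 6.96% of the CpG-rich others. The NRF1 core CGCATGCG was in 5, 6.49% (2.81 to 14.3%), against 2.21% of the others and 4.45% of the CpG-rich others, so its interval includes the latter. The E-Box CACGTG was in 6 promoters, 7.79% (3.62 to 16.0%), against 7.78% of the others and 11.3% of the CpG-rich others. Motifs were searched on both strands, and those searched do not contain one another. By Bio-Myc, the ETS motif was in 14 of the 33 bound promoters (42.4%) and 13 of the 44 unbound ones (29.5%), with overlapping intervals. Among the other protein-coding genes it was in 21.2% of the bound and 8.88% of the unbound promoters, a difference in the same direction. Bound here refers to any TSS of the gene, whereas the motif was scored at the outermost one. Mrps12 and Mrps24 hold the motif there and count as bound, but had no peak within 1 kb of that TSS. Mrps5 and Mrps28 held none of the 5 motifs under their Bio-Myc peak.

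Genes with related roles were taken from lists, whose counts stand beside 14.5% (Bio-Myc) and 34.7% (Max) of the other protein-coding genes. Of 6 mitoribosomal proteins under other names, Bio-Myc was at 3 and Max at 4. Those with Bio-Myc were Dap3 (138, Max 177), Chchd1 (113, Max 492) and Gadd45gip1 (222, Max 380). Ptcd3 had a Max peak of 228 alone, and Aurkaip1 and Ict1 had neither. Mrp63 had 143 for Bio-Myc and 538 for Max. Of 22 annotated genes for mitoribosome assembly, which have 21 symbols because Nsun4 is annotated under separate identifiers, both unbound, Bio-Myc was at 12 (54.5%) and Max at 14 (63.6%), with the GTPase gene Mtg1 highest for Bio-Myc at 270 (Max 388). Of 13 genes for mitochondrial translation factors, Bio-Myc was at 2, Gfm2 (129) and Taco1 (92.5), and Max at 8 (61.5%). The Bio-Myc share of 15.4% is close to that of the other protein-coding genes. Of 5 genes for mitochondrial transcription, Bio-Myc was at 2, Tfam (177, Max 301) and Polrmt (87.6, Max 99.8), and Max at 3. With lists this small the intervals overlap, that for translation factors being 4.33 to 42.2% and that for assembly 34.7 to 73.1%. Neither of these includes the share of the other list, and the difference was not tested.

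The proteins of the cytosolic ribosome gave a nearer comparison. Of 82 genes named Rpl or Rps, after leaving out pseudogene, kinase and like names once those had been seen, Bio-Myc was at 78, 95.1% (88.1 to 98.1%), and Max at 75, 91.5% (83.4 to 95.8%). Without that trimming the shares were 55.7% and 56.4% of 149 genes. The mitochondrial set, at 42.9%, thus lay below the trimmed cytosolic set and above the protein-coding average for Bio-Myc. The canonical E-Box was under 39.7% (29.6 to 50.8%) of the Bio-Myc peaks of the trimmed cytosolic set and 18.2% (8.61 to 34.4%) in the mitochondrial set. The intervals overlap, but neither includes the share of the other set, and the difference was not tested. The ETS motif was under 53.9% and 51.5%.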

How the data were processed

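Chromatin of E14 mouse ESCs was sequenced by ChIP-Seq on an Illumina HiScanSQ. The authors processed images with CASAVA 1.8, mapped unique hits with up to 2 mismatches to mm9 with Bowtie 0.12.7, collapsed duplicates, and called peaks in MACS 1.4.1 against the mock or IgG library, with 1e-08 as the largest p-value. The score that the authors deposited for each peak is −10 times the log10 of that p-value. Unique mapping leaves out repeats and near-identical copies, and at a fixed p-value a deeper library yields more peaks. Read numbers were not given in the sources used here.

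Peaks were set against all TSSs of GENCODE M1 (Ensembl 65, 37310 genes), by overlap of at least 1 bp with the 1-kb window, and the strongest peak of a gene was used. A peak shared by several genes was counted for each of them. The mitochondrial and related lists and the motifs were chosen with earlier results of these data known. Every gene with a Bio-Myc peak or without a Max peak was named, with coordinates for the 10 highest of each class, for Bio-Myc without Max and for paired promoters. Shares have 95% Wilson intervals. The analysis used Python 3.11.15, numpy 2.4.6, scipy 1.17.1 and matplotlib 3.10.9. The overlap, distance, motif and interval steps were tested on simulated data, and 15 of 15 returned the known answer. Coordinates are 1-based. The control libraries entered only through the peak calls. From the related lists, 6 symbols matched no protein-coding gene.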

Additional observations from a re-analysis of the deposited data

How the results depend on the processing

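Of 67 alternatives computed, 55 left the value within the interval of the reported one and 12 did not, and none turned a ratio to the other genes below 1. The lowest and highest ratios were 1.7 and 3.67 (Bio-Myc) and 1.25 and 2.44 (Max). With a p-value limit of 1e-11 the Max share was 59.7% (others 28.7%, ratio 2.08) and the share with both peaks 27.3%. With 1e-15 the shares were 19.5% for Bio-Myc (others 6.80%, ratio 2.86), 42.9% for Max (others 22.6%, ratio 1.9) and 14.3% for both. With as many Max peaks as Bio-Myc peaks, taken by score, the Max share was 28.6% (others 15.45%, ratio 1.85) and that with both 20.8%. These shares fall by construction, since fewer peaks are used. Limited to a CpG ratio of at least 0.6, the ratio was 1.7 for Bio-Myc and 1.25 for Max, and with a Max peak over the TSS itself it was 2.44. The E-Box share under Bio-Myc peaks was 6.06% in the central 200 bp (others 17.4%) and 72.7% with CACGTG or CACGCG (others 78.0%). Leaving out chromosome 8 gave 44.0% for Bio-Myc (others 14.4%) and 73.3% for Max (others 33.35%). Leaving out Mrps36-ps1 was added after the data were examined and left every value within its interval. No paired analysis was possible because each ChIP is 1 library. The unknown depth limits what the missing peaks show.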

Other observations

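Peaks were also found within some of the genes beyond the 1-kb window. Mrpl33, which had a Max peak alone at its promoter, held Bio-Myc peaks in introns with scores of 155, at 3153 bp from the nearest TSS, and 94.5, at 42165 bp, and a Max peak of 357 near the latter. Mrps28 held a Max peak of 492 in an intron, 117575 bp from its TSS, and Mrps21 a Max peak of 165 in an intron. The annotated pseudogenes Mrpl23-ps1, Mrpl48-ps and Mrps36-ps2 had no peak in either list, as is also the case for Mrps36-ps1.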
